A study of Mus musculus with 6 samples.

Results

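The genes described here are 10 markers of the mesothelium and the epicardium: Msln, Upk1b, Upk3b, Krt8, Krt18, Krt19, Wt1, Lrrn4, Muc16 and Clic6. They were picked by symbol from the 35976 genes of a read count table, and the choice was made with their levels in edited and control hearts already known. Levels and changes between these groups are therefore given for the 10 genes as a description, and no p-value is given for them. All 10 were in the table, and all 10 passed the filter on low counts. RNA was measured in hearts of wild-type mice, in 3 libraries from edited hearts and 3 from untreated hearts (control). The edited hearts had received an adeno-associated virus carrying the adenine deaminase TadA8e with a Cas9 named Sauri under the MYL2 promoter, which is active in heart muscle, and a U6-driven guide, sgRNA7, against Camk2d. The series asked how heart RNA differs after adenine base editing of a splice site in Camk2d. Controls are labelled as given no treatment, so virus, editor and edit cannot be told apart. Age, sex, dose, the time since treatment and the region of heart taken are not stated in the labels. Nor do they state that replicates were different mice, so p-values measure only the spread between these libraries, which may be technical.

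The epicardium is the outer cell layer of the heart. It is a mesothelium, a simple flat epithelium of the kind that also lines the pericardial sac, the pleura and the peritoneum. Mesothelial cells hold keratin filaments made of a type II keratin, such as Krt8, paired with a type I keratin, such as Krt18 or Krt19, and they carry a coat of surface glycoproteins such as mesothelin (Msln) and the mucin Muc16, which binds mesothelin. During development, epicardial cells that express Wt1 and Tbx18 give rise to fibroblasts and mural cells of the heart. The adult layer is thin, so its RNA is a small part of whole heart RNA.

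Promoters are shown for 4 of the genes, those of the uroplakin gene Upk3b and of Lrrn4, which hold the letters CATTCC on either strand, and those of the keratin partners Krt8 and Krt18, which do not. CATTCC is the core of the sequence bound by TEAD factors. RefSeq sequences (build GRCm38.p6) span 250 bases before to 50 bases after the annotated start and were matched by symbol for 5 of the 10 genes, the fifth being Muc16. Capitals mark CATTCC or its reverse complement.
Upk3b: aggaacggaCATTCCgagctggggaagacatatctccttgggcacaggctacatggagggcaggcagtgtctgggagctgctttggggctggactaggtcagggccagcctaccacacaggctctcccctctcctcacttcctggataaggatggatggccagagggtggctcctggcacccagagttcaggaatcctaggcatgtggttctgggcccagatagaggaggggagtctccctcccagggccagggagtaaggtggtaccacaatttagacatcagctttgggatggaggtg
Lrrn4: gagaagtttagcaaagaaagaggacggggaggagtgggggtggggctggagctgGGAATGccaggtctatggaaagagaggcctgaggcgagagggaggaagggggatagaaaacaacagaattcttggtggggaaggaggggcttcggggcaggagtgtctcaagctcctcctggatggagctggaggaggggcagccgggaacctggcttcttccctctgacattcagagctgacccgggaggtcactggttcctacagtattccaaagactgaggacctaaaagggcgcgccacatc
Krt8: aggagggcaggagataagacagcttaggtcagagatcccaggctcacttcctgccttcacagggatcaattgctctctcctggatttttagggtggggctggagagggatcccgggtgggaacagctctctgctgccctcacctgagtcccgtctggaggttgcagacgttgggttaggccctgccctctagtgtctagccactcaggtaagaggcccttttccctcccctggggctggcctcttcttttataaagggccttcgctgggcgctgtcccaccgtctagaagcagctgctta
Krt18: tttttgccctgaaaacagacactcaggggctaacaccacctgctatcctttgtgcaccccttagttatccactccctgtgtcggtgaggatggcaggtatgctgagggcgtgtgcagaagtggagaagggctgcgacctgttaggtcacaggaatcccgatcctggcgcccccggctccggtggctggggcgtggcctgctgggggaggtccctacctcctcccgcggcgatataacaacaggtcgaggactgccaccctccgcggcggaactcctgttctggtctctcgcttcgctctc

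The Upk3b window is chr5:136038246-136038545 on the plus strand, with the capitals beginning 241 bases before the start. The Lrrn4 window is chr2:132880813-132881112 on the minus strand, with the capitals beginning 196 bases before a RefSeq start that lies inside the gene as the deposited table draws it. The Krt8 window is chr15:102004293-102004592 on the minus strand and the Krt18 window is chr15:102027966-102028265 on the plus strand, and the deposited exons of these neighbouring genes are 23873 bases apart. CATTCC stood in 2 of the 5 matched promoters and in 14.7% of all 32851 promoter windows. GCGGGGGCG, a sequence bound by WT1 and EGR factors, was in 0 of the 5 and in 2.91% of all windows, and TGANTCA, the AP-1 sequence, was in 0 of the 5 and in 7.81%. Both strands were searched, and no motif contains another.

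Total counts per library ranged from 17265842 to 23097998 in edited hearts and from 17062412 to 19743748 in control hearts. Camk2d, the targeted gene, was at 138, 130 and 164 CPM (counts per 1000000 counts, scaled by TMM factors) in edited hearts 1, 2 and 3, against 226, 220 and 224 CPM in controls 1, 2 and 3. The 7 heart muscle genes checked, among them Myh6 and Tnnt2, summed to 59423 to 63628 CPM in edited hearts and to 71341 to 73554 CPM in control hearts, so RNA of heart muscle was abundant in every library. Libraries also differed in atrial RNA: the 5 atrial genes summed to 1780, 1164 and 2679 CPM in edited hearts 1, 2 and 3, against 42.2, 1881 and 20.2 CPM in controls 1, 2 and 3. Bmp10, 1 of these 5, had 0, 0 and 2 reads in edited hearts 1, 2 and 3, against 1, 1933 and 1 reads in controls 1, 2 and 3. It did not pass the filter on low counts. Reads of the smooth muscle and large vessel list were high in edited heart 2, at 10259 CPM, against 3953 and 4312 CPM in edited hearts 1 and 3 and 2638 to 2888 CPM in control hearts. The difference between the groups in this sum came largely from Eln, at 1948, 7666 and 2560 CPM in edited hearts and 550, 749 and 550 CPM in control hearts. Acta2 was at 617, 856 and 325 CPM in edited hearts, against 502, 604 and 482 CPM in control hearts, and Des and Smtn had lower means in edited hearts.

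The surface and keratin genes were scarce in every heart and higher in edited hearts, and Wt1 was lower in edited hearts. Of the 10 genes, 9 had a higher level in every edited heart than in any control heart, and Wt1 had a lower level in every edited heart than in any control heart. Over all 14879 tested genes, edited hearts lay wholly above controls for 14.6% and wholly below for 14.7%, and edgeR's quasi-likelihood test called 9.66% in either direction. In edgeR's quasi-likelihood test with Benjamini-Hochberg adjustment over all tested genes, 8 of the 10 were past 0.05 with a higher level and 1, Wt1, with a lower level, while Upk3b was not past the threshold. The same threshold was passed by 4.93% of all tested genes with a higher level and by 4.74% with a lower level. The genes were chosen with this contrast known, so nothing is read from these counts. Their median log2 change (edited over control) was 2.05, beside a median of 0.0013 over all tested genes. In RNA from whole hearts, a change in the number of cells of a type and a change in RNA per cell cannot be told apart.

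**Figure D1:**
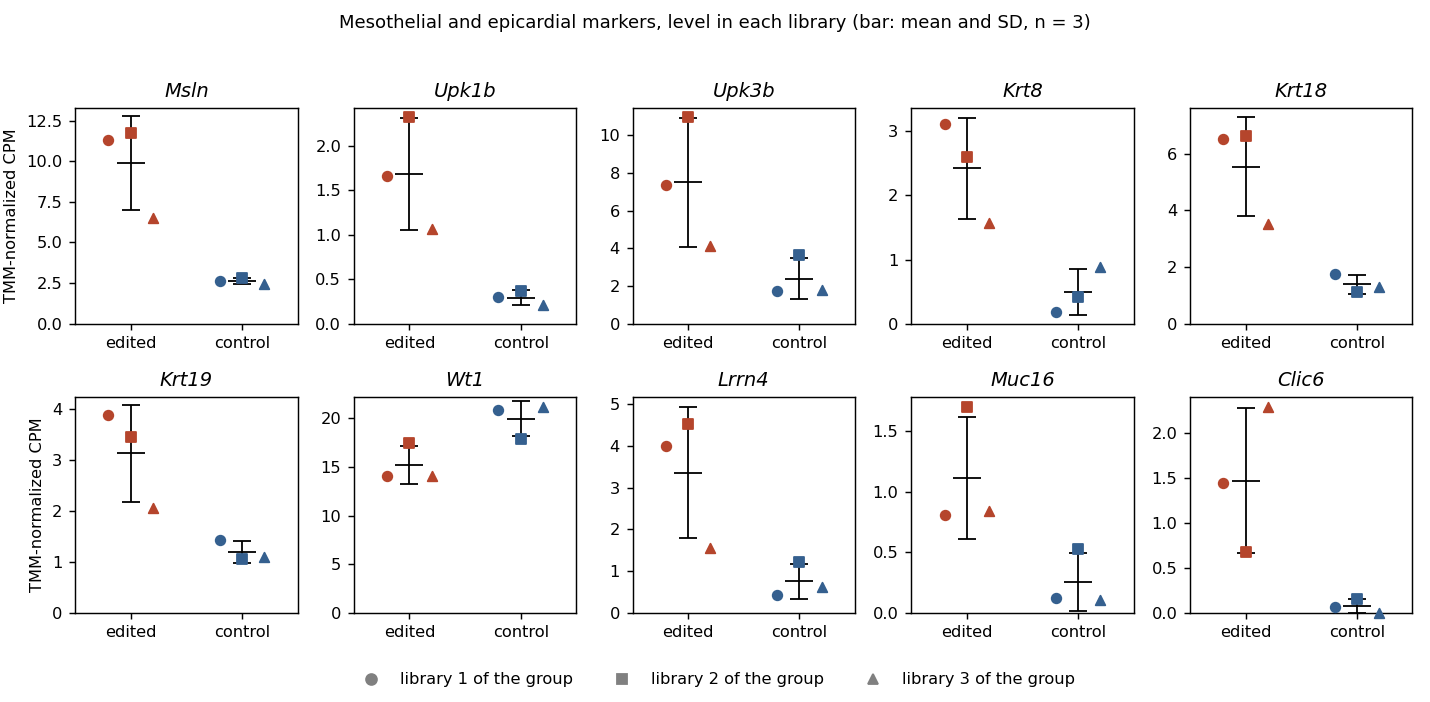
Level of each of the 10 genes in TMM-normalized CPM (vertical axis, from 0) in 3 edited and 3 control libraries. Points are single libraries, with the bar at the mean and its ends at 1 SD, and in 9 panels all edited points lie above all control points, while for Wt1 they lie below.

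Among the surface proteins, Msln encodes mesothelin, a glycoprotein held to the membrane by a lipid anchor. It lies on chromosome 17 from 25748613 to 25754446 on the minus strand (mm10, as all gene coordinates here) and had 266, 208 and 117 reads in edited hearts 1, 2 and 3, against 44, 53 and 47 reads in controls 1, 2 and 3. Its level was 11.3, 11.8 and 6.53 CPM in edited hearts and 2.63, 2.79 and 2.45 CPM in control hearts. Edited hearts 1 and 2 were nearly equal, edited heart 3 was lower, and the control hearts were close together. The means were 9.88 ± 2.91 CPM in edited hearts and 2.63 ± 0.17 CPM in control hearts (SD, n = 3 each), a ratio of 3.76 and a log2 change of 1.91 (SE 0.22).

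Muc16, the mucin known in humans as the source of the CA125 antigen, spans 26897 exon bases on chromosome 9 (18495445 to 18674821, minus strand). It had 19, 30 and 15 reads in edited hearts 1, 2 and 3, against 2, 10 and 2 reads in controls 1, 2 and 3. Edited heart 2 and control 2 were the highest of their groups, and the lowest edited level, 0.81 CPM, lay above the highest control level, 0.53 CPM. The log2 change was 2.08 (SE 0.54), and 3.23 without control 2. On summed reads, corrected for depth, the ratio was 4.25, with an exact 95% interval of 2.36 to 8.20 that covers counting error only. Of its exon bases, 0.204% are shared with Gm39297. Muc6, the other mucin gene at 1 CPM or more in a group, was at 1.02 ± 0.40 CPM in edited hearts and 1.11 ± 0.24 CPM in control hearts (SD, n = 3 each; log2 change -0.11, SE 0.32, adjusted p = 0.877 in edgeR's quasi-likelihood test).

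Upk1b and Upk3b encode uroplakins, membrane proteins best known from the lining of the bladder, where a tetraspanin uroplakin pairs with a partner that crosses the membrane once. Upk1b, the tetraspanin (chromosome 16, 38773182 to 38800203, minus strand), was at 1.66, 2.32 and 1.06 CPM in edited hearts 1, 2 and 3, against 0.30, 0.37 and 0.21 CPM in controls 1, 2 and 3. Upk3b (chromosome 5, 136038496 to 136044993, plus strand) was at 7.38, 10.97 and 4.13 CPM in edited hearts and at 1.73, 3.63 and 1.77 CPM in control hearts. Both were highest in edited heart 2 and control 2 and lowest among edited hearts in edited heart 3, and for Upk3b the gap between the groups was narrow. The log2 changes were 2.50 (SE 0.38) for Upk1b and 1.64 (SE 0.49) for Upk3b. Per unit of length, Upk3b RNA stood at 4.09, 4.37 and 3.59 times Upk1b in edited hearts 1, 2 and 3, against 5.35, 9.10 and 7.84 times in controls 1, 2 and 3. The bladder partners gave another picture: Upk2 and Upk3a had no read in any library, and Upk1a was at 1.85 ± 0.24 CPM in edited hearts and 1.87 ± 0.19 CPM in control hearts (SD, n = 3 each; log2 change -0.02, SE 0.22, adjusted p = 0.968 in edgeR's quasi-likelihood test).

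Lrrn4 encodes a membrane protein with leucine-rich repeats (chromosome 2, 132866686 to 132894010, minus strand). It was at 4.01, 4.52 and 1.56 CPM in edited hearts 1, 2 and 3, against 0.42, 1.21 and 0.63 CPM in controls 1, 2 and 3. Edited heart 3 stood much nearer to control 2 than to the other edited hearts. The log2 change was 2.14 (SE 0.49). Lrrn4 shares 1.88% of its exon bases with Crls1 on the opposite strand, and the sources used here do not give the strand setting of the counting. The other 3 Lrrn genes at 1 CPM or more did not pass the threshold, with adjusted p of 0.754 for Lrrn1, 0.0774 for Lrrn2 and 0.866 for Lrrn4cl in edgeR's quasi-likelihood test. Lrrn2 was at 12.1 ± 2.15 CPM in edited hearts and 7.89 ± 1.99 CPM in control hearts (SD, n = 3 each).

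The keratins form the inner skeleton of these cells. Krt8, the type II keratin (chromosome 15, 101996711 to 102004342, minus strand), had 73, 46 and 28 reads in edited hearts 1, 2 and 3, against 3, 8 and 17 reads in controls 1, 2 and 3. Krt18, its type I partner (chromosome 15, 102028216 to 102032026, plus strand), had 153, 117 and 63 reads in edited hearts and 29, 21 and 25 reads in control hearts. In CPM, Krt8 was highest in edited heart 1 and control 3 of their groups, and Krt18 in edited heart 2 and control 1, while both were lowest among edited hearts in edited heart 3. Krt8 averaged 2.43 ± 0.79 CPM in edited hearts and 0.50 ± 0.36 CPM in control hearts, and Krt18 averaged 5.55 ± 1.76 CPM in edited hearts and 1.38 ± 0.32 CPM in control hearts (SD, n = 3 each). The log2 change was 2.26 (SE 0.42) for Krt8, being 2.97 without control 3, and 2.02 (SE 0.27) for Krt18.

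Krt19, the shortest type I keratin, which lacks most of the tail of the others, lies on chromosome 11 (100140810 to 100145926, minus strand). It was at 3.88, 3.45 and 2.07 CPM in edited hearts 1, 2 and 3, against 1.44, 1.05 and 1.10 CPM in controls 1, 2 and 3. Its log2 change of 1.40 (SE 0.26) was the smallest of the 9 higher genes. Per unit of length, Krt18 stood at 2.70, 3.28 and 2.90 times Krt8 in edited hearts 1, 2 and 3. In controls 1, 2 and 3 the ratio was 12.5, 3.38 and 1.90, where Krt8 had 3, 8 and 17 reads and the ratio is correspondingly imprecise.

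Among the other 51 keratin genes of the table, 4 reached 1 CPM in a group and all 4 were tested. Krt7, a type II keratin of simple epithelia, and Krt80, another type II keratin, were higher in edited hearts, Krt222, a keratin-like gene, was lower, and Krt10, the type I keratin of the upper epidermis, did not pass. Krt80 was at 2.94, 2.66 and 2.74 CPM in edited hearts, against 1.20, 1.16 and 1.04 CPM in control hearts (log2 change 1.29, SE 0.21, adjusted p = 0.00221 in edgeR's quasi-likelihood test). Krt222 was the most abundant, at 26.2 ± 2.37 CPM in edited hearts and 33.7 ± 3.62 CPM in control hearts (SD, n = 3 each; log2 change -0.36, SE 0.09, adjusted p = 0.0213 in the same edgeR test). The call of Krt222 was lost without edited heart 3 (adjusted p 0.0570), control 2 (0.0752) or control 3 (0.0654), and with control 2 as the only control (0.0897) by edgeR. The call of Krt80 held with each library left out, but not with the atrial gene Myl7 as a covariate (adjusted p 0.117 by edgeR) or with control 2 as the only control (0.142).

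Wt1, the zinc finger transcription factor used to trace epicardial cells, departed from the rest. It is also known in mice from cells of the heart's vessels, and its mean level per unit of length was the highest of the 10 in both groups. Wt1 (chromosome 2, 105126529 to 105173614, plus strand) had 330, 309 and 251 reads in edited hearts 1, 2 and 3, against 348, 339 and 405 reads in controls 1, 2 and 3. Its level was 14.1, 17.5 and 14.02 CPM in edited hearts and 20.8, 17.9 and 21.1 CPM in control hearts. Edited heart 2 and control 2 were nearly equal, and they alone bring the groups close to touching. The means were 15.2 ± 1.98 CPM in edited hearts and 19.9 ± 1.81 CPM in control hearts (SD, n = 3 each), a ratio of 0.76 and a log2 change of -0.40 (SE 0.10).

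Clic6, of the chloride intracellular channel family, had the largest change of the 10 and the fewest control reads. On chromosome 16 (92498147 to 92541241, plus strand) it had 34, 12 and 41 reads in edited hearts 1, 2 and 3, against 1, 3 and 0 reads in controls 1, 2 and 3. Edited heart 3, the lowest edited heart for most of the other genes, was the highest for Clic6, and edited heart 2 was the lowest. On summed reads, corrected for depth, the ratio was 20.2, with an exact 95% interval of 7.62 to 75.8 that covers counting error only, and the fitted log2 change of 4.22 (SE 0.70) rests on 4 control reads in all, being 5.42 without control 2. Its relatives Clic1, Clic3, Clic4 and Clic5 did not pass the threshold, with adjusted p of 0.174 to 0.415 in edgeR's quasi-likelihood test. Clic4, the most abundant of them, was at 492 ± 23.7 CPM in edited hearts and 535 ± 9.35 CPM in control hearts (SD, n = 3 each; log2 change -0.12, SE 0.05, adjusted p = 0.174 in edgeR's quasi-likelihood test).

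Both the total and the balance of the 10 genes differed between the groups. Their summed level was 54.2, 62.1 and 37.6 CPM in edited hearts 1, 2 and 3, against 29.4, 29.1 and 29.6 CPM in controls 1, 2 and 3. Without Wt1, a sum formed after its values were seen, the other 9 genes came to 40.2, 44.6 and 23.6 CPM in edited hearts and to 8.61, 11.3 and 8.46 CPM in control hearts. The control hearts were thus close in total, with Wt1 making up most of it, and the edited hearts were higher and more spread. Per unit of length (RPKM), Wt1 took 22.7 ± 5.28% of the summed level of the 10 genes in edited hearts and 57.4 ± 4.59% in control hearts. Msln took 19.6 ± 1.17% in edited hearts and 10.5 ± 0.77% in control hearts, and Krt18 took 17.4 ± 1.60% in edited hearts and 8.78 ± 1.92% in control hearts (SD, n = 3 each). Upk3b shares overlapped between the groups, at 12.8% to 19.8% in edited hearts and 7.49% to 16.1% in control hearts.

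The order of levels per unit of length set Wt1 further apart from the next gene in control hearts than in edited hearts. In edited hearts Wt1 stood at 4.91 ± 0.64 RPKM, Msln at 4.43 ± 1.30 RPKM, Krt18 at 3.97 ± 1.26 RPKM and Upk3b at 3.68 ± 1.68 RPKM, neighbours that differ by less than their SD. In control hearts Wt1 stood at 6.45 ± 0.59 RPKM and the next, Msln, Upk3b and Krt18, at 1.18 ± 0.076, 1.17 ± 0.53 and 0.99 ± 0.23 RPKM. Krt19 followed at 2.21 ± 0.67 RPKM in edited hearts and 0.84 ± 0.15 RPKM in control hearts, and Krt8 at 1.34 ± 0.44 RPKM in edited hearts and 0.27 ± 0.20 RPKM in control hearts. Upk1b, Lrrn4, Clic6 and Muc16 ranked below these in both groups, with group means under 1 RPKM (SD, n = 3 each).

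**Figure D2:**
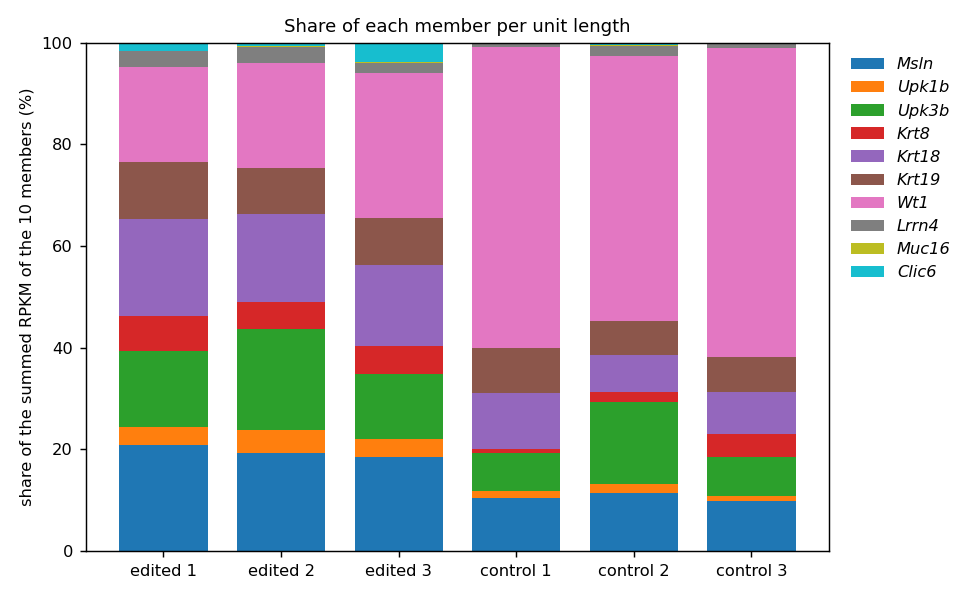
Share of each gene in the summed RPKM of the 10 genes (vertical axis, percent) in each library, edited hearts on the left. Wt1 takes 18.6% to 28.6% of each edited bar and 52.2% to 60.8% of each control bar.

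The 10 genes did not vary together in every respect. Edited heart 2 was the highest edited heart for 7 of them, edited heart 1 for Krt8 and Krt19, and edited heart 3 for Clic6. Edited heart 3 was the lowest for 8 genes, the exceptions being Muc16 and Clic6. Among control hearts, control 2 was the highest for 6 genes, namely Msln, Upk1b, Upk3b, Lrrn4, Muc16 and Clic6, but the lowest for Krt18, Krt19 and Wt1. Within edited hearts the highest library exceeded the lowest by 1.80-fold for Msln, 1.88-fold for Krt18 and Krt19, 2.65-fold for Upk3b, 2.89-fold for Lrrn4 and 3.37-fold for Clic6, and by 1.25-fold for Wt1.

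Likeness was measured as the root mean square difference between a gene's log2 level over the 6 libraries, centred on its mean, and the median of the 10 centred profiles. That median profile stood at 1.13, 1.25 and 0.37 in edited hearts 1, 2 and 3, against -1.08, -0.79 and -1.06 in controls 1, 2 and 3. Msln followed it most closely of the 10, with a difference of 0.078, and Wt1 and Clic6 least, with 1.18 and 0.99. Of 12810 other genes compared, the 5 nearest were Ptprz1 (0.23), a receptor tyrosine phosphatase, Mt3 (0.25), a metallothionein, Bex4 (0.30), Fstl4 (0.31), a follistatin-like gene, and Capn6 (0.32), of the calpain family, beside a median difference of 1.00 over all genes compared. Ptprz1 was at 7.59, 6.96 and 4.08 CPM in edited hearts 1, 2 and 3, against 1.20, 1.79 and 0.94 CPM in controls 1, 2 and 3. These 5 share the difference between the groups by construction, since it dominates the profile.

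Other genes of the mesothelium and epicardium were taken from a list of 27 that holds none of the 10. Of these 27, 22 passed the filter on low counts, 6 rose in edited hearts and 0 fell in edgeR's quasi-likelihood test. At an unadjusted p under 0.05 by edgeR the counts were 11 higher and 0 lower. DESeq2 called 4 higher and 0 lower, beside 617 higher and 652 lower over all 14879 tested genes. Limma voom with quality weights called 9 higher and 0 lower, beside 1194 higher and 1091 lower over all tested genes. No share over all tested genes is given for unadjusted p, so nothing is read from the unadjusted counts here or below. The 6 called by edgeR make up 27.3% of the tested list, beside 4.93% of all tested genes. The median log2 change of the list was 0.45, beside 0.0013 over all tested genes. Bnc1 and Krt7, both among the 6, had 1, 5 and 2 reads and 3, 12 and 5 reads in controls 1, 2 and 3. Both passed the filter on low counts through their edited levels. A gene that low in control hearts can hardly be called lower, so the share leans towards higher calls. The list was written with the higher levels of the 10 genes known, so its direction is not independent of them. The 5 genes that did not pass the filter were Calb2, Slpi, Dmkn, Cldn1 and Anxa8, each with a group mean below 1 CPM.

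The 6 that rose were transcription factors, secreted or surface proteins and a keratin. Bnc1, a zinc finger factor, was at 0.90, 0.85 and 0.73 CPM in edited hearts 1, 2 and 3, against 0.060, 0.26 and 0.10 CPM in controls 1, 2 and 3, from 1 to 5 control reads (log2 change 2.45, SE 0.46, adjusted p = 0.00515 in edgeR's quasi-likelihood test). Tbx18, the T-box factor of the embryonic epicardium, was at 14.7, 17.6 and 17.3 CPM in edited hearts and at 11.8, 11.7 and 11.6 CPM in control hearts (log2 change 0.49, SE 0.09, adjusted p = 0.00509 in the same edgeR test). Both lay above all control hearts in all 3 edited hearts, Tbx18 by a much smaller step. Krt7 was at 1.07, 1.64 and 1.12 CPM in edited hearts, against 0.18, 0.63 and 0.26 CPM in control hearts (log2 change 1.78, SE 0.40, adjusted p = 0.0140 by edgeR). Without control 2, the control heart highest for both, the log2 change was 3.21 for Bnc1 and 2.47 for Krt7.

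Nkain4, which encodes a membrane protein that interacts with the sodium pump, averaged 2.85 ± 0.66 CPM in edited hearts and 1.38 ± 0.22 CPM in control hearts. Efemp1, the matrix protein fibulin-3, averaged 3.74 ± 0.51 CPM in edited hearts and 2.19 ± 0.30 CPM in control hearts. Sema3d, a secreted guidance protein, averaged 13.5 ± 0.51 CPM in edited hearts and 10.2 ± 1.10 CPM in control hearts (SD, n = 3 each). Their log2 changes were 1.04, 0.76 and 0.40, with adjusted p of 0.0142, 0.0206 and 0.0208 in edgeR's quasi-likelihood test.

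The 3 most abundant genes of the list per unit of length were not past the threshold. Bcam, a laminin receptor, was at 163 ± 7.46 RPKM in edited hearts and 165 ± 8.75 RPKM in control hearts. Aldh1a2, which makes retinoic acid, was at 23.7 ± 1.71 RPKM in edited hearts and 26.1 ± 2.15 RPKM in control hearts, and Tcf21, a factor of epicardial cells and fibroblasts, at 20.6 ± 1.85 RPKM in edited hearts and 19.7 ± 3.73 RPKM in control hearts (SD, n = 3 each). Their log2 changes were -0.02, -0.14 and 0.06, with adjusted p of 0.901, 0.266 and 0.828 in edgeR's quasi-likelihood test. Cdh3 and Gpm6a, named after their values were seen, had large estimated changes that did not pass (adjusted p 0.145 and 0.239 in edgeR's quasi-likelihood test), each with 1 edited heart far above the others. Cdh3, a cadherin, was at 2.09, 5.54 and 1.45 CPM in edited hearts 1, 2 and 3, against 0.18, 1.05 and 0.42 CPM in controls 1, 2 and 3. Gpm6a, a membrane glycoprotein, was at 20.3, 6.45 and 4.91 CPM in edited hearts, against 2.57, 3.84 and 2.51 CPM in control hearts.

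**Figure D3:**
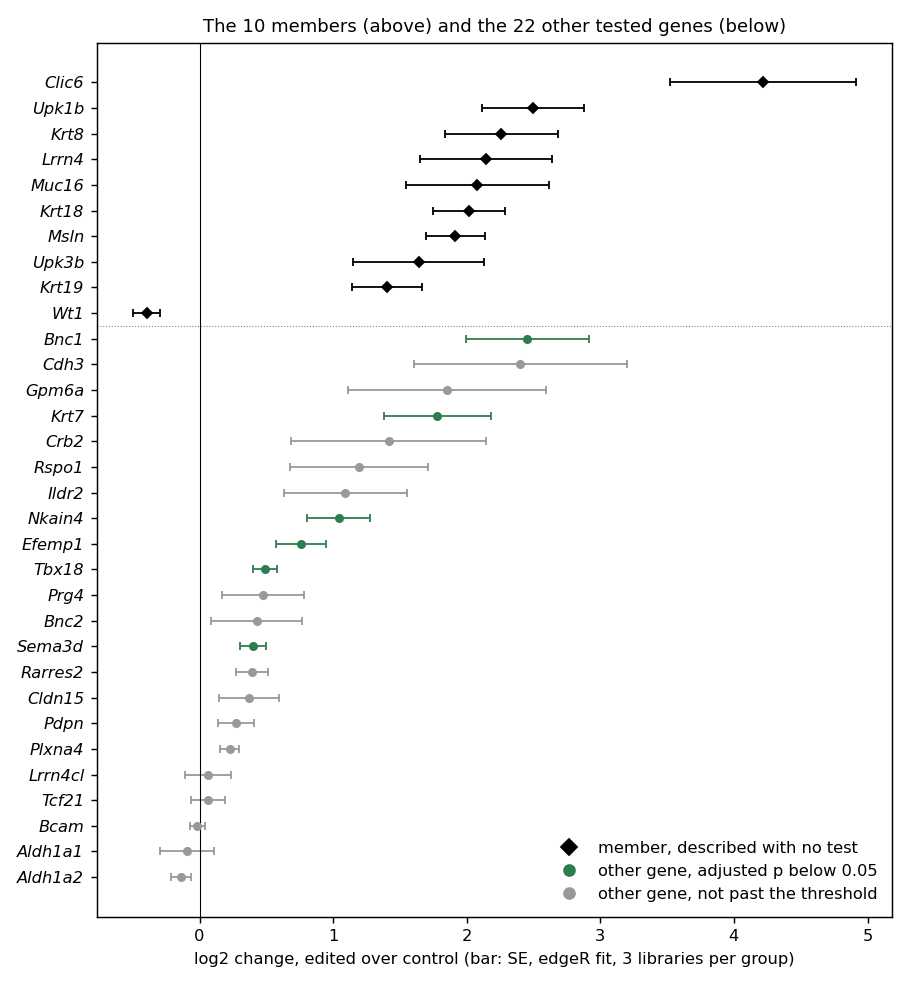
Log2 change, edited over control (horizontal axis, bars 1 SE), for the 10 genes above the dotted line and for the 22 tested genes of the other list below it. Black diamonds are the 10 genes, given without a p-value, green points passed the threshold and grey points did not, and Wt1 at -0.40 lies apart from the other 9 diamonds, which run from 1.40 to 4.22.

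Of the 6 calls of the other list, 5 were lost with at least 1 library left out, and Tbx18 was not. Without control 3, 1 gene of the list was called, Tbx18, and without control 1, 2 genes were called, Bnc1 and Tbx18. For Tbx18 the adjusted p was at most 0.0438 with 1 library left out. By edgeR, Bnc1 had an adjusted p of 0.0551 without control 3. Krt7 had 0.0737 without control 1 and 0.105 without control 3, and Nkain4 had 0.0633 without control 1, 0.0928 without control 3 and 0.0699 without edited heart 3. Efemp1 had 0.0923 without control 1, 0.0884 without control 3 and 0.0534 without edited heart 2. Sema3d had 0.0840 without control 1, 0.127 without control 3, 0.0511 without edited heart 1 and 0.0514 without edited heart 3. By DESeq2's Wald test Sema3d and Efemp1 were not past the threshold, at 0.0581 and 0.0602.

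Markers of other tissues moved with some of these values. Atrial RNA was low in controls 1 and 3, and the 9 genes without Wt1 summed to 11.3 CPM in control 2, the control with atrial RNA, against 8.61 and 8.46 CPM in controls 1 and 3. Among edited hearts the order went the other way, with the most atrial RNA (2679 CPM) and the lowest sum (23.6 CPM) in edited heart 3. Control 2 and the edited hearts were not alike in atrial RNA, since Bmp10 had 1933 reads in control 2 and at most 2 in any edited heart. With control 2 as the only control, assumed to vary as the edited hearts do, the log2 changes were 1.82 for Msln, 2.16 for Upk1b, 1.04 for Upk3b, 2.51 for Krt8, 2.32 for Krt18, 1.57 for Krt19, 1.47 for Lrrn4, 1.06 for Muc16, 3.16 for Clic6 and -0.24 for Wt1. With the log2 level of Myl7, an atrial myosin light chain, as a covariate they ran from 1.14 for Muc16 to 3.16 for Krt8 among the 9 higher genes, and Wt1 was at -0.21. Myl7 itself was higher in every edited heart, at 542, 371 and 914 CPM in edited hearts 1, 2 and 3, against 6.88, 332 and 0.21 CPM in controls 1, 2 and 3. The covariate therefore overlaps with group, and the fit cannot separate the 2. In that fit 0 genes of the other list were called by edgeR, with 4 of 22 at an unadjusted p under 0.05, and with control 2 as the only control 0 were called, with 6 of 24. For the 6 genes named above, edgeR's adjusted p ran from 0.150 to 0.511 with the covariate and from 0.238 to 0.567 with control 2 alone.

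Large vessel RNA was highest in edited heart 2, which was also the highest edited heart for 7 of the 10 genes. Without edited heart 2, the log2 change was 1.78 for Msln, 1.28 for Upk3b, 1.67 for Muc16 and -0.50 for Wt1. Eln, the elastin gene, was at 1948, 7666 and 2560 CPM in edited hearts 1, 2 and 3, against 550, 749 and 550 CPM in controls 1, 2 and 3 (adjusted p = 0.0975 in edgeR's quasi-likelihood test). Of the 7 tested genes of the 8 in that list, 0 passed by edgeR, with 1 higher and 1 lower at an unadjusted p under 0.05, while DESeq2 called 2 higher and limma voom 1 higher and 1 lower. The fat marker Adipoq was also highest in edited heart 2, at 2.71 CPM, against at most 0.67 CPM in the other edited hearts and 0.21 CPM in control hearts. The part of vessel or fat tissue in the levels of the 10 genes was not tested.

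Most markers of other epithelia were at or near 0. Of the 14 genes checked, Esrp1 and Scgb1a1 had no read in any library, and Epcam was at no more than 0.17 CPM and Cdh1 at no more than 0.47 CPM in any edited heart, while Cdh1 had no read in any control heart and Epcam was at no more than 0.12 CPM. Cldn3, which did not pass the filter on low counts, was at 0.38, 0.90 and 0.17 CPM in edited hearts, against 0.060, 0.11 and 0.10 CPM in control hearts. The list summed to 3.46 to 3.80 CPM in edited hearts and 2.33 to 2.45 CPM in control hearts. Its most abundant gene, Trp63, a factor of basal cells, was at 1.56 ± 0.38 CPM in edited hearts and 1.57 ± 0.14 CPM in control hearts (SD, n = 3 each). Krt14, a type I keratin of basal cells, was the 1 call of its 2 tested genes, at 0.55, 0.74 and 0.56 CPM in edited hearts, against 0.060, 0.11 and 0.052 CPM in control hearts (log2 change 2.96, SE 0.52, adjusted p = 0.00372 in edgeR's quasi-likelihood test), from 1 or 2 reads in each control heart. Its call was lost with Myl7 as a covariate (adjusted p 0.180 by edgeR) and with control 2 as the only control (0.302).

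Fibroblast genes were abundant in all hearts. The 8 genes checked summed to 8368 to 10398 CPM in edited hearts and 7073 to 8931 CPM in control hearts, with a median log2 change of 0.16, and 1 of 8 rose, Lum, a matrix proteoglycan, at 200.3 ± 7.40 CPM in edited hearts and 168 ± 12.9 CPM in control hearts (SD, n = 3 each). The call of Lum was lost without control 1 (adjusted p 0.0846), control 3 (0.133) or edited heart 3 (0.104) by edgeR. Of 6 Schwann cell and nerve genes, summing to 21.3 to 36.1 CPM in edited hearts and 15.7 to 20.1 CPM in control hearts, 1 of 4 tested rose, the neurotrophin receptor Ngfr (9.38 ± 2.98 CPM in edited hearts and 5.52 ± 0.39 CPM in control hearts, SD, n = 3 each). Its call was lost without edited heart 3 or any 1 control (adjusted p 0.0766 to 0.176 by edgeR). The median log2 change of the 4 was 0.69. By edgeR 3 were higher at an unadjusted p under 0.05, limma voom called 3 higher and DESeq2 1. The calls of Lum and Ngfr were also lost with Myl7 as a covariate (adjusted p 0.564 and 0.473 by edgeR) and with control 2 as the only control (0.613 and 0.588). The 3 tested thymus and lymphoid genes of 8, the 1 tested adipocyte gene of 7, Fabp4, and the 4 tested atrial genes did not pass the threshold by edgeR, and 0 of each had an unadjusted p under 0.05. DESeq2 also called 0 of these. Limma voom called the 4 atrial genes higher and 0 of the others, in a fit with quality weights, which let libraries count unequally. The lymphoid genes summed to 3.63 to 8.49 CPM in edited hearts and 4.00 to 5.69 CPM in control hearts. The adipocyte genes, nearly all Fabp4, summed to 542 to 575 CPM in edited hearts and 530 to 613 CPM in control hearts. That sum says little about the others, which did not pass the filter on low counts. Plin1 had 0, 62 and 7 reads in edited hearts 1, 2 and 3, against 0, 5 and 0 reads in controls 1, 2 and 3. In the same order, Cidec had 0, 28 and 4 against 0, 4 and 0 reads, and Cfd 0, 9 and 11 against 0, 1 and 0 reads. Lep and Retn had at most 1 read in any library. Of the 7 heart muscle genes 4 fell by edgeR, Myh6, Tnnt2, Tnni3 and Pln. All 7 were lower at an unadjusted p under 0.05 by edgeR, and DESeq2 and limma voom each called 7 lower.

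**Figure D4:**
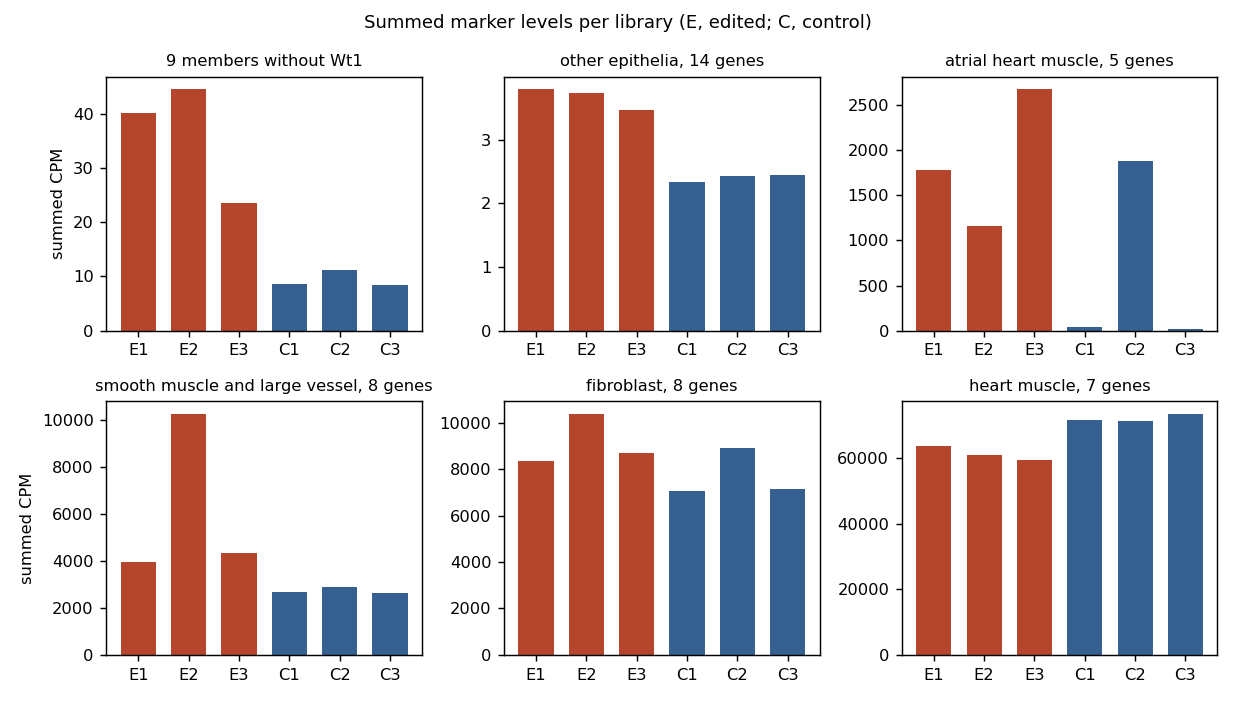
Summed CPM of marker lists (vertical axes, from 0, each panel on its own scale) in edited hearts (E1 to E3) and control hearts (C1 to C3). The 9 genes without Wt1 are higher in all edited hearts, atrial RNA is low in C1 and C3 alone, and the vessel list peaks in E2 at 10259 CPM.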

How the data were processed

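The authors deposited raw read counts per gene for 6 libraries, per the file headers with 2 columns for each library, 1 for each mate. Because 0 genes differed between the mates, each pair was used as 1 library. The submitters' processing notes name STAR, featureCounts, cutadapt and FastQC and the build mm10. Their versions, the strand setting and the handling of reads with several matches are not known from them.

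From these counts, filterByExpr left 14879 of 35976 genes, libraries were scaled by TMM, and edgeR 4.0.16 in R 4.3.3 tested edited against control with its robust quasi-likelihood fit, group being the only term, with Benjamini-Hochberg adjustment over all tested genes and a threshold of 0.05. A standard error is the log2 change divided by the root of the F value. Exon length in the deposited table gave RPKM. Steps were tested on simulated counts. Libraries of a group differed beyond sampling noise (chi-square per degree of freedom 3.95 to 14.4).

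Members, lists and alternatives were chosen with earlier results of these data known. Named genes are the 10 members, called genes of the other list and its 3 most abundant others, family genes at 1 CPM or more, the 5 nearest profiles and defining markers. Alternatives were other scalings and filters, DESeq2 (version 1.42.0), limma voom with quality weights (version 3.58.1), a replicate block, Myl7 as a covariate and left-out libraries. Quality weights let libraries count unequally, and every voom result here comes from that fit.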

Additional observations from a re-analysis of the deposited data

How the results depend on the processing

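The summed level of the 10 genes had a log2 ratio of 0.64 to 0.98 with 1 library left out, against 0.80 with all, and moved by less than the spread between libraries under the other alternatives run. No log2 change of the 10 genes changed sign in any alternative that gave a value. The number of the 10 past the threshold with a higher level, 8 as reported, was 6 to 8 with 1 library left out. It was 9 with the replicate block, DESeq2 or voom, 1 with Myl7 as a covariate and 6 with a filter of 1 CPM in 3 libraries. The fit with control 2 as the only control is left out of these counts because it has 1 control. Its log2 changes are given above, and no call of the 10 genes is claimed for it. Over all 14879 tested genes, 733 were past it with a higher level as reported. That number was 620 with the replicate block, 617 with DESeq2, 1194 with voom and 44 with Myl7. With the 1 CPM filter it was 702 of 13748, and with 1 library left out 188 to 921 of 15001 to 15413. The 10 were chosen with this contrast known, so nothing is read from these counts. Wt1, past the threshold with a lower level as reported, was not past it with the replicate block, with Myl7 as a covariate, with control 2 as the only control, or without edited heart 1, edited heart 3, control 1 or control 3.

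The number of all genes called, 1438 as reported (733 higher and 705 lower), was 2239 without a filter, 2285 with voom, 126 with Myl7 as a covariate, 82 with control 2 as the only control, and 386 to 1661 with 1 library left out. Upper-quartile scaling gave 849 higher and 531 lower. Krt14, Bnc1, Muc16 and Clic6 did not pass the filter of 1 CPM in 3 libraries. The number of calls in the other mesothelial and epicardial list, 6 as reported, was 0 with Myl7 as a covariate and 0 with control 2 as the only control by edgeR (4 of 22 and 6 of 24 at an unadjusted p under 0.05), and 1 to 8 with 1 library left out. The control 2 fit has fewer samples. Myl7 was higher in every edited heart than in any control heart, so as a covariate it overlaps with group. The cause of the other shifts was not tested.

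Same-numbered libraries did not deviate together (correlations 0.02, -0.10 and -0.08, and 1 of 6 libraries correlated best with its own number), so no pairing by number was seen. The check cannot exclude a pairing, since libraries also differed in atrial and vessel RNA. With the replicate block 1077 genes were called in all and 7 in the list, and Krt222 was not called (adjusted p 0.0550 by edgeR). Depth limits Upk1b, Muc16, Clic6, Bnc1 and Krt14 most, with 10 or fewer reads in each control library. These genes passed the filter on low counts through their edited levels.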
